A study of Caenorhabditis elegans with 8 samples.

Results

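The aspartyl and cysteine protease genes of *Caenorhabditis elegans* were compared between worms with the *dyf-1(mn335)* mutation and wild-type. Members were the probe sets whose platform annotation names exactly 1 gene with an *asp*, *cpr*, *cpl* or *cpz* symbol. This gave 28 of 29317 probe sets, 25546 of which name exactly 1 gene, and each member stands for a different gene. There were 17 *asp* genes, 8 *cpr* genes, 1 *cpl* gene and 2 *cpz* genes. One of them, *asp-11*, is a pseudogene in the current gene table, and *asp-2* was not analysed here.

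Aspartyl proteases of this kind are relatives of pepsin and cathepsin D, and the *cpr*, *cpl* and *cpz* genes encode relatives of the papain-like cathepsins B, L and Z. They are made as inactive precursors with a propeptide, and the mature enzymes work best in acidic compartments. In the worm they digest bacterial food in the gut and break down proteins that reach lysosomes by endocytosis and autophagy, a route that runs beside the ubiquitin-proteasome system. Some have further tasks in moulting, yolk processing and necrotic cell death.

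The study asked how ciliated sensory neurons influence ubiquitin-dependent protein degradation in the intestine, and a misfolded form of the cathepsin L precursor was among its reporters. The mutants carried *dyf-1(mn335)*, which removes the function of a ciliary protein that couples the kinesin OSM-3 to intraflagellar transport, so that the distal segments of sensory cilia do not form. The other group was wild-type, strain N2 Bristol. Both groups were whole hermaphrodites synchronised by bleaching and grown at 22 °C to day 1 of adulthood, 200 to 300 worms in a sample and 4 samples in a group, and total RNA of each sample was read on 1 Affymetrix *C. elegans* gene array. The allele is present in every cell, and no strain with restored DYF-1 was on the arrays. In RNA of whole animals, fewer cells of a type and less RNA per cell cannot be told apart. The study describes its microarray replicates as biologically independent experiments.

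Values are log2 units after RMA, a procedure that corrects background, equalises the distributions of the arrays and combines the probes of a set. The medians of the deposited values still differed by strain, at 5.30 to 5.36 in the mutant and 5.14 to 5.21 in wild-type. A fold change is the mean of the mutant arrays minus the mean of the wild-type arrays, so a positive one means higher in the mutant. A gene was called when the adjusted p of limma, after Benjamini-Hochberg adjustment over all 29317 probe sets, was under 0.01. A gene with a mean under 5 on this scale is described as dim.

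The arrays were not equally alike within a strain. Mutant replicates 1 to 3 correlated at 0.993 to 0.994 over all probe sets and mutant replicate 4 with them at 0.978 to 0.984. Wild-type replicates 1 to 3 correlated at 0.987 to 0.992, and wild-type replicate 4 with them at 0.958 to 0.974, below its correlation of 0.976 to 0.978 with mutant replicates 1 to 3. Mutant replicate 4 correlated with wild-type replicates 1 to 3 at 0.957 to 0.961. Mutant replicates 1 to 3 correlated with the same wild-type arrays at 0.932 to 0.956. Results that rest on the replicate 4 arrays are therefore given with and without them. The *dyf-1* transcript read 6.85, 7.02, 7.30 and 7.48 in the mutant and 6.26, 6.01, 5.61 and 6.07 in wild-type. It was higher in all mutant arrays (log2 fold change 1.18, SE 0.19, limma adjusted p = 0.0031), and since the sources used here do not describe the lesion of *mn335*, this does not check the strain labels.

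Most of the 28 proteases differed little between the strains. One gene, *cpr-8*, which encodes a cathepsin B-like cysteine protease, was called and was 2.53-fold lower in *dyf-1(mn335)*. No member was called higher. Of all probe sets, 6.56% were called higher and 3.46% lower in the mutant, and the single lower call is 3.57% of the members. At an unadjusted limma p under 0.05 there were 5 members, 1 higher (*asp-14*) and 4 lower (*cpr-8*, *asp-12*, *asp-8* and *asp-13*), which is 17.9% of 28, against 39.0% of all probe sets in either direction. The same 5 genes passed an adjusted p under 0.05, which 13.1% of all probe sets passed as higher and 11.7% as lower.

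**Figure D1:**
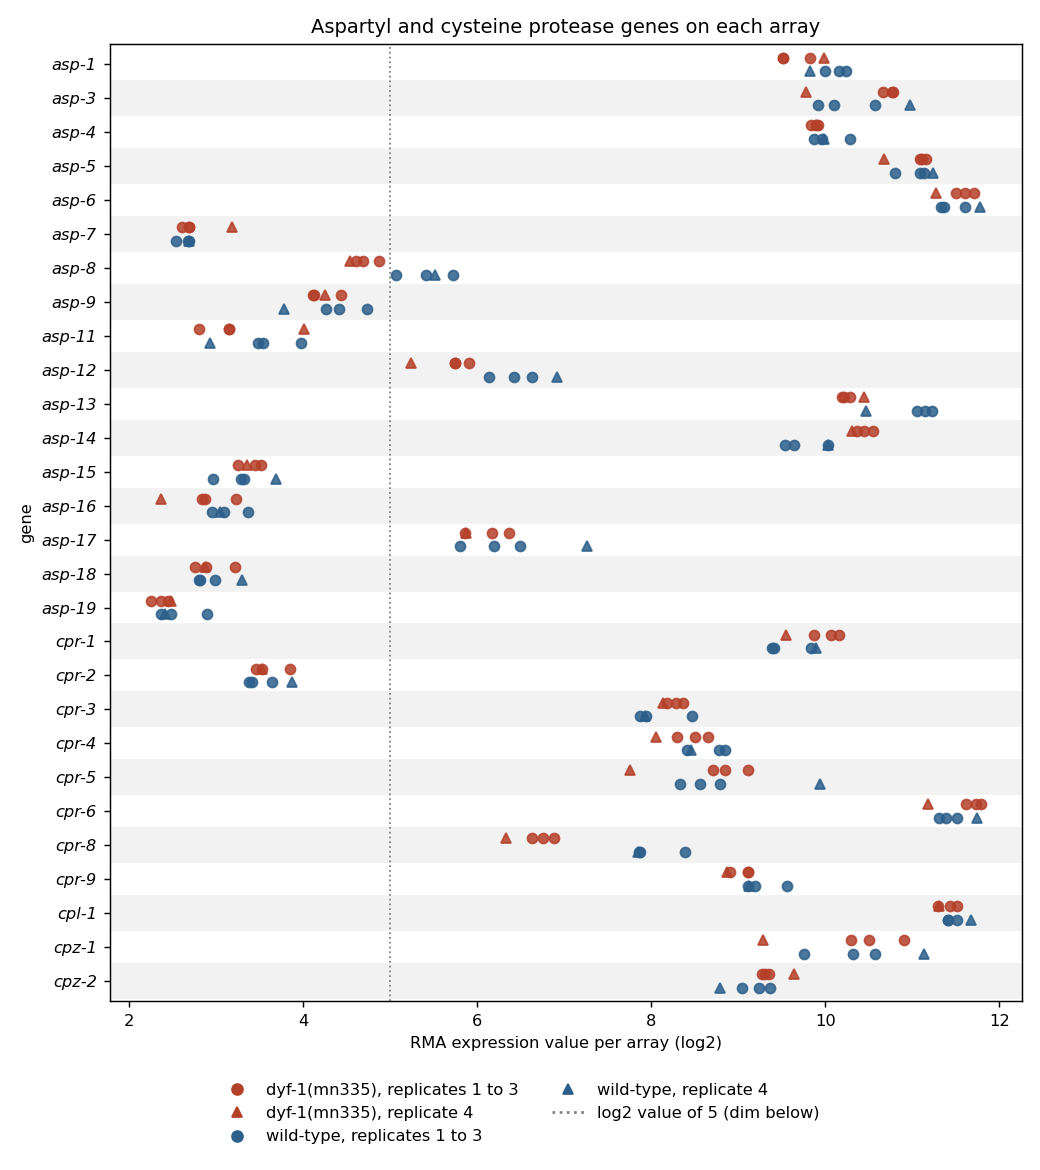
RMA value (log2, horizontal axis) of each of the 28 genes (vertical axis) on each array, with *dyf-1(mn335)* in red above wild-type in blue, replicate 4 of each strain as a triangle, and a dotted line at a log2 value of 5. The 4 red and 4 blue symbols are separate for *cpr-8*, *asp-8*, *asp-12*, *asp-13* and *asp-14* and overlap for the other 23 genes.

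Over the 28 members, log2 fold changes ran from -1.34 to 0.61, with 10 above 0 and 18 below. Their median was -0.13, against -0.04 over all probe sets. The change was smaller than 0.5 log2 units in either direction in 23 members (82.1%), against 62.6% of all probe sets. Without both replicate 4 arrays this held for 20 members (71.4%), against 54.0% of all probe sets. Over all arrays the whole 95% interval of the difference lay within 1 log2 unit of 0 in 21 members (75.0%). The same held for 62.1% of all probe sets. The 21 include all 8 members that were dim in both strains, where the weak signal limits the reading. Of the 20 members with a mean of at least 5, 13 (65.0%) met this, against 52.7% of all probe sets with such a mean. For these 13 genes a doubling or a fall of the same size lies outside the interval. The median unsigned change was 0.20 in the members (0.23 without both replicate 4 arrays) and 0.35 (0.45) in all probe sets. The replicates of the members were about as far apart as those of other probe sets, with a median SD of 0.21 in the mutant and 0.25 in wild-type, against 0.23 and 0.30 over all probe sets.

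Both families held genes on either side of 0. The 17 *asp* genes had a median log2 fold change of -0.14, 5 of them above 0 and 12 below, and none was called. The 8 *cpr* genes had a median of -0.11, with 4 above and 4 below, and the call on *cpr-8* was the only one among them. Of the *asp* genes, 1 was higher and 3 were lower at an unadjusted limma p under 0.05.

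*cpr-8* read 6.63, 6.76, 6.88 and 6.33 in the mutant, and 7.86, 8.39, 7.87 and 7.85 in wild-type. Every mutant array was below every wild-type array, and the gap between the strains was wider than the spread inside either. Mutant arrays averaged 6.65 ± 0.23 and wild-type arrays 7.99 ± 0.26 (SD, n = 4 each), and the log2 fold change was -1.34 (SE 0.18, 95% interval -1.74 to -0.94, limma adjusted p = 0.0012). It was called without either replicate 4 array and without both. Without wild-type replicate 4 the log2 fold change was -1.39 (limma adjusted p = 0.0007), and without both replicate 4 arrays it was -1.28 (limma adjusted p = 0.0007). Replicate 4 was the lowest array of its strain in both groups for this gene. A fit with the replicate number as a block left *cpr-8* short of the threshold (limma adjusted p = 0.0128), and 1.07% of all probe sets were called in that fit. The labels do not say that same-numbered arrays belong together. Deviations of same-numbered arrays from their strain means correlated at -0.57 to 0.01.

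In the gene table *cpr-8* lies next to *cpr-5*, another cathepsin B-like gene, with no gene between them. The neighbour had a log2 fold change of -0.30 (SE 0.39, limma adjusted p = 0.599), and its values in the mutant, 9.11, 8.85, 8.71 and 7.76, overlapped those in wild-type, 8.56, 8.79, 8.33 and 9.94. Wild-type replicate 4 was the highest and mutant replicate 4 the lowest of the 8 *cpr-5* values. Its log2 fold change was 0.05 without wild-type replicate 4, and without both replicate 4 arrays it was 0.33, so the sign of the *cpr-5* difference rests on those arrays. Whether the pair differ in their response was not tested.

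No overlap between the strains was also seen in *asp-12*, *asp-8*, *asp-13* and *asp-14*, which together with *cpr-8* makes 1 gene higher and 4 lower. Of all probe sets, 12.6% were separate with the mutant higher and 11.1% with the mutant lower, 23.7% in all, and the 5 members are 17.9%. For each of these 5 genes the exact two-sided permutation test gave p = 0.0286, the smallest that 4 arrays against 4 allow.

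*asp-12*, a gene of the pepsin-like group, read 5.91, 5.74, 5.74 and 5.24 in the mutant, against 6.13, 6.63, 6.42 and 6.92 in wild-type. Mutant replicate 4 was the lowest and wild-type replicate 4 the highest, and the nearest arrays of the strains were 5.91 and 6.13. The log2 fold change of -0.86 (SE 0.21) missed the threshold (limma adjusted p = 0.0166). It was -0.60 without both replicate 4 arrays (limma adjusted p = 0.0147). With all arrays *asp-12* passed under median centring and array weights (limma adjusted p = 0.0083 and 0.0078). It missed the threshold with a signal filter, cyclic loess and a replicate block (limma adjusted p = 0.0151, 0.0124 and 0.0840).

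*asp-8* is a further pepsin-like gene with a weak signal. It was dim in the mutant, at 4.69, 4.61, 4.87 and 4.54, and just above that limit in wild-type, at 5.06, 5.72, 5.41 and 5.51. The strains were separate but by a small step, from the highest mutant array at 4.87 to the lowest wild-type array at 5.06. The log2 fold change was -0.75 (SE 0.17, limma adjusted p = 0.0121). It was -0.72 without wild-type replicate 4 (limma adjusted p = 0.0112) and -0.67 without both replicate 4 arrays (limma adjusted p = 0.0187), and missed the threshold in both settings. Only without wild-type replicate 1, the lowest of its strain and so the nearest to the mutant arrays, did leaving out arrays let *asp-8* pass (-0.87, limma adjusted p = 0.0098). With all arrays it passed under median centring, cyclic loess and array weights (limma adjusted p = 0.0059, 0.0064 and 0.0073). It missed the threshold with a signal filter and a replicate block (limma adjusted p = 0.0104 and 0.0566).

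*asp-13* had a strong signal, with 10.19, 10.21, 10.29 and 10.44 in the mutant and 11.15, 11.06, 11.23 and 10.47 in wild-type. Here wild-type replicate 4 lay beside the mutant arrays, 0.67 below the mean of the other wild-type arrays. Over all arrays the log2 fold change was -0.69 (SE 0.18) and missed the threshold (limma adjusted p = 0.0235). Without wild-type replicate 4 it was -0.86, and *asp-13* passed (limma adjusted p = 0.0009).

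*asp-14* was the one member whose mutant arrays all lay above the wild-type arrays. It read 10.55, 10.36, 10.44 and 10.31 in the mutant, and 9.64, 10.03, 9.54 and 10.03 in wild-type. The log2 fold change was 0.61 (SE 0.16), short of the threshold over all arrays (limma adjusted p = 0.0218). Without wild-type replicate 4 it was 0.68, and *asp-14* passed (limma adjusted p = 0.0071). The 2 genes *asp-13* and *asp-14* thus moved in opposite directions in that setting.

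With wild-type replicate 4 left out, 3 members were called, *asp-14* higher and *cpr-8* and *asp-13* lower, while the calls over all probe sets went to 13.3% higher and 12.9% lower. Without both replicate 4 arrays the count was again 1 higher and 2 lower, beside 17.0% and 16.3% of all probe sets. The members called are 10.7% of 28 in both settings, against 26.2% and 33.3% of all probe sets in either direction. With wild-type replicate 4 left out, 1 member was separate from wild-type on the higher side and 5 on the lower (21.4%, against 45.8% of all probe sets), *asp-1* being the gene added.

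**Figure D2:**
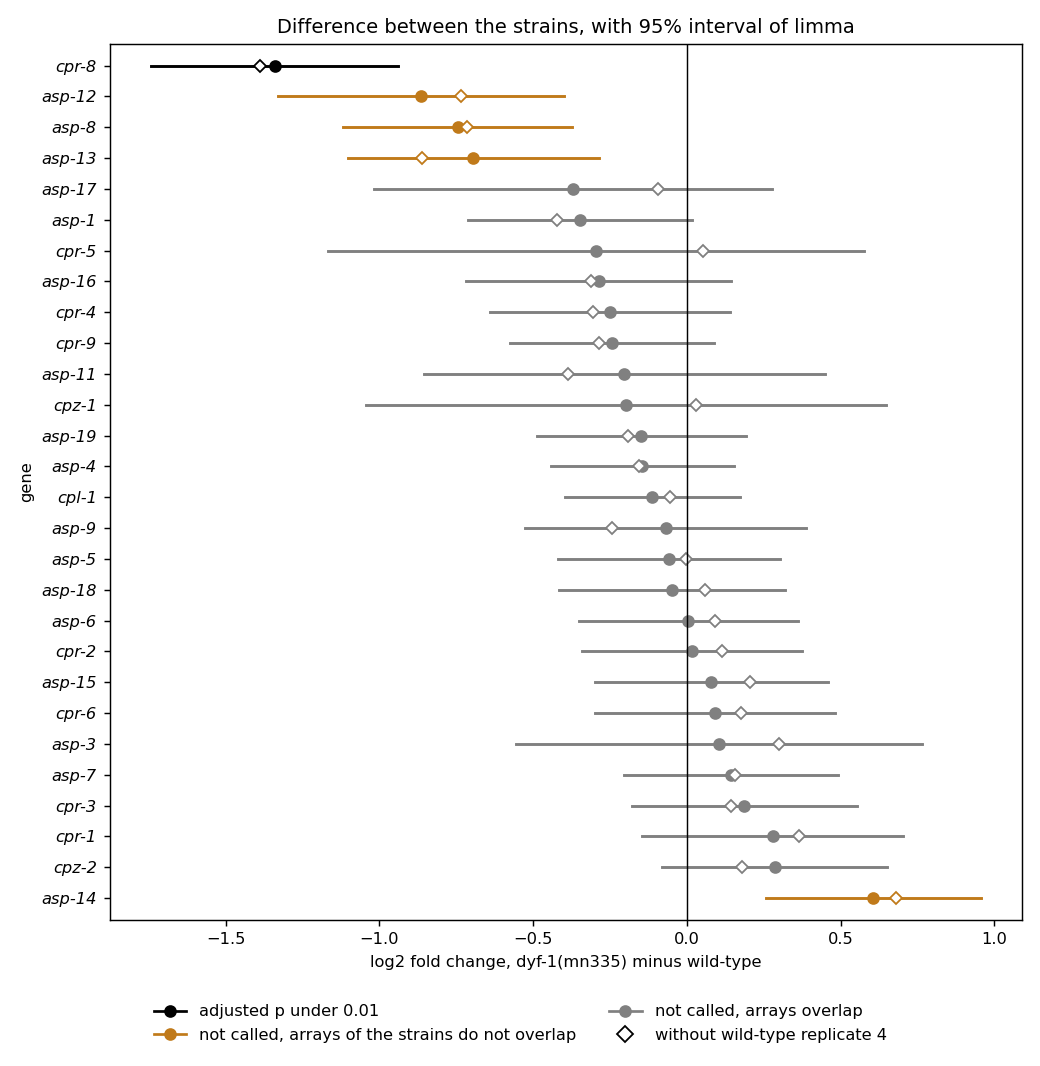
Log2 fold change of each of the 28 genes (vertical axis), *dyf-1(mn335)* minus wild-type, with the 95% interval of limma over all 8 arrays (filled circle and line) and the value without wild-type replicate 4 (open diamond). *cpr-8*, in black at -1.34, is the single call, the 4 genes in orange have separate arrays without a call, and 23 genes lie within 0.5 of 0.

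Over all arrays the proteases with the best known tasks, *cpl-1*, *asp-4*, *asp-3* and *cpz-1*, had log2 fold changes between -0.20 and 0.10. The intervals were narrow for *cpl-1* and *asp-4* and wide for *asp-3* and *cpz-1*. *cpl-1*, the cathepsin L gene, is needed for embryonic development, for the handling of yolk and for moulting. It read 11.51, 11.30, 11.43 and 11.31 in the mutant, against 11.41, 11.51, 11.41 and 11.67 in wild-type. The strains overlapped, and the log2 fold change was -0.11 (SE 0.13, 95% interval -0.40 to 0.17, limma adjusted p = 0.539, exact two-sided permutation p = 0.286). The interval leaves out any change larger than 0.40 log2 units in either direction.

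*asp-4*, a cathepsin D-like protease that acts in the necrotic death of neurons, was at 9.84, 9.92, 9.89 and 9.89 in the mutant and at 9.96, 10.29, 9.87 and 9.99 in wild-type. Its mutant arrays were the closest of any member, with an SD of 0.04. Of these, 3 lay inside the wild-type range and 1, at 9.84, just below its lowest array at 9.87. The log2 fold change was -0.14 (SE 0.13, 95% interval -0.44 to 0.15, limma adjusted p = 0.442, exact two-sided permutation p = 0.114).

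*asp-3* is the other cathepsin D-like protease with a known part in necrotic death. Its values were 10.78, 10.66, 10.77 and 9.78 in the mutant and 10.10, 10.57, 9.92 and 10.98 in wild-type. Replicate 4 stood apart in both strains and in opposite directions, so that the lowest of all values was a mutant one and the highest a wild-type one. Over all arrays the log2 fold change was 0.10 (SE 0.29, 95% interval -0.55 to 0.76, limma adjusted p = 0.814, exact two-sided permutation p = 0.83). Without both replicate 4 arrays it was 0.54, with the strains separate and the threshold missed (limma adjusted p = 0.0382).

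*cpz-1* encodes cathepsin Z, which acts in moulting. It showed the same arrangement, with 10.91, 10.30, 10.50 and 9.28 in the mutant and 10.32, 10.57, 9.76 and 11.13 in wild-type. The mutant SD of 0.69 was the widest of any member in that strain. The log2 fold change of -0.20 (SE 0.38, 95% interval -1.04 to 0.65, limma adjusted p = 0.724, exact two-sided permutation p = 0.629) became 0.35 without both replicate 4 arrays (limma adjusted p = 0.270). A change of 2-fold downwards is inside this interval, so these arrays bound *cpz-1* less tightly than *cpl-1*.

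**Figure D3:**
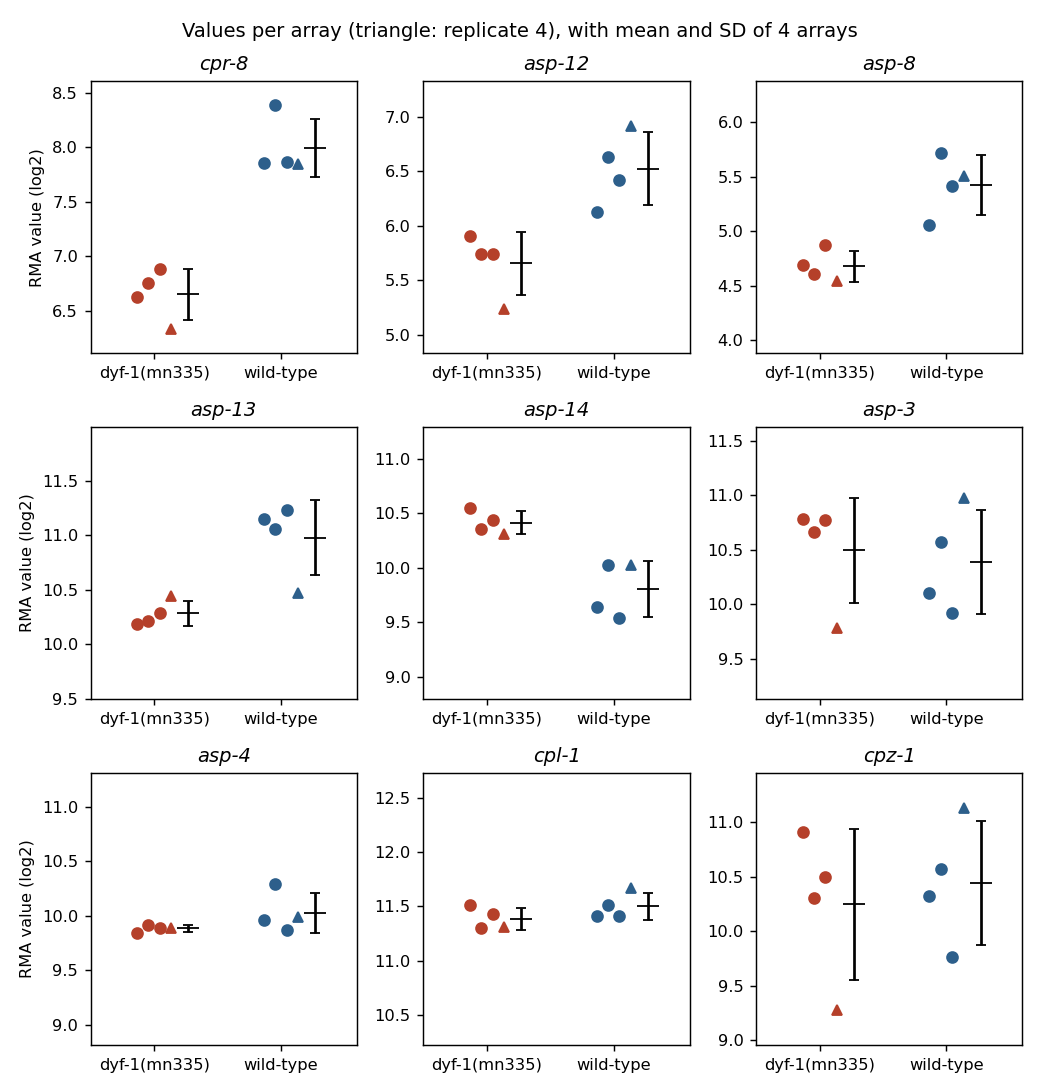
RMA value (log2, vertical axis, the same span in every panel) of 9 genes on each array, *dyf-1(mn335)* left and wild-type right, replicate 4 as a triangle, with the mean and SD of the 4 arrays as a bar. The first 5 panels have separate strains, the panels of *asp-4* and *cpl-1* show overlap with little spread, and in the panels of *asp-3* and *cpz-1* the triangles are the outermost points, low in the mutant and high in wild-type.

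The other members above the dim limit stayed within 0.37 log2 units of 0 over all arrays, and none passed. *asp-1*, a protease of the intestine, read 9.52, 9.51, 9.83 and 9.99 in the mutant and 10.24, 10.16, 10.00 and 9.83 in wild-type. The strains overlapped through their replicate 4 arrays, the highest mutant and the lowest wild-type one. Its log2 fold change was -0.35 over all arrays (limma adjusted p = 0.145) and -0.52 without both of them (limma adjusted p = 0.0167). *cpr-1*, a cysteine protease of the gut, had 10.16, 9.87, 10.07 and 9.55 in the mutant and 9.39, 9.84, 9.41 and 9.89 in wild-type, with a log2 fold change of 0.28 (limma adjusted p = 0.301). Without both replicate 4 arrays *cpr-1* was at 0.49, with the mutant arrays all higher and the threshold missed (limma adjusted p = 0.0413).

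*asp-5*, *asp-6* and *cpr-6* had log2 fold changes of -0.06, 0.00 and 0.09 over all arrays, and of 0.11, 0.17 and 0.31 without both replicate 4 arrays. In that setting the mutant arrays of *cpr-6* were all higher, and it missed the threshold (limma adjusted p = 0.061). *cpr-4*, a cathepsin B-like protease that can be secreted, was at -0.25 (SE 0.17, limma adjusted p = 0.313), *cpr-9* at -0.24 and *cpr-3* at 0.19. *cpz-2* was at 0.29 (limma adjusted p = 0.225). *asp-17* was at -0.37, and wild-type replicate 4, at 7.26, lay 1.10 above the mean of the other wild-type arrays. The change of *asp-17* was -0.10 without that array. All of these overlapped between the strains.

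Of the members, 8 were dim in both strains: *asp-7*, *asp-9*, *asp-11*, *asp-15*, *asp-16*, *asp-18*, *asp-19* and *cpr-2*. Their array values lay between 2.25 and 4.73, and their log2 fold changes between -0.29 and 0.14. At signals this weak a small difference cannot be read as equal expression.

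Several *asp* genes lie side by side in the gene table, and their changes differed within such runs. In the run *asp-6*, *asp-12*, *asp-5* and *asp-11* the log2 fold changes were 0.00, -0.86, -0.06 and -0.20 in that order. *asp-8* at -0.75 lies next to the dim *asp-7* at 0.14. The run *asp-17*, *asp-16* and *asp-15* had -0.37, -0.29 and 0.08, and *asp-1*, separated from it by the gene Y39B6A.21, had -0.35. *asp-19* and *asp-18*, also adjacent, were at -0.15 and -0.05. Differences between neighbours were not tested.

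The replicate 4 arrays moved many proteases, often downwards in the mutant and upwards in wild-type. In 9 of 28 members (32.1%) mutant replicate 4 was the lowest of its strain and wild-type replicate 4 the highest, which held for 19.9% of all probe sets. These were *asp-3*, *asp-5*, *asp-6*, *asp-12*, *asp-14*, *cpr-1*, *cpr-5*, *cpr-6* and *cpz-1*. The reverse, mutant replicate 4 highest and wild-type replicate 4 lowest, was seen in 4 members (14.3%), *asp-1*, *asp-11*, *asp-13* and *cpz-2*, and in 22.3% of all probe sets. Mutant replicate 4 was the lowest of its strain in 15 members (53.6%, against 31.7% of all probe sets), and wild-type replicate 4 the highest in 14 (50.0%, against 36.9%).

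Shifts of about 1 log2 unit were seen in *cpr-5*, with mutant replicate 4 at 1.13 below the mean of mutant replicates 1 to 3 and wild-type replicate 4 at 1.38 above the mean of the other wild-type arrays. For *cpz-1* the same shifts were 1.29 below and 0.91 above, and for *asp-3* they were 0.96 below and 0.78 above. The cathepsin L gene moved by 0.10 downwards and 0.23 upwards, and *asp-4* by less than 0.05 either way. When both arrays were left out, 4 members were separate with the mutant higher and 6 with the mutant lower. These are 35.7% of the members, against 59.1% of all probe sets in either direction. The median log2 fold change of the members was then 0.00.

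**Figure D4:**
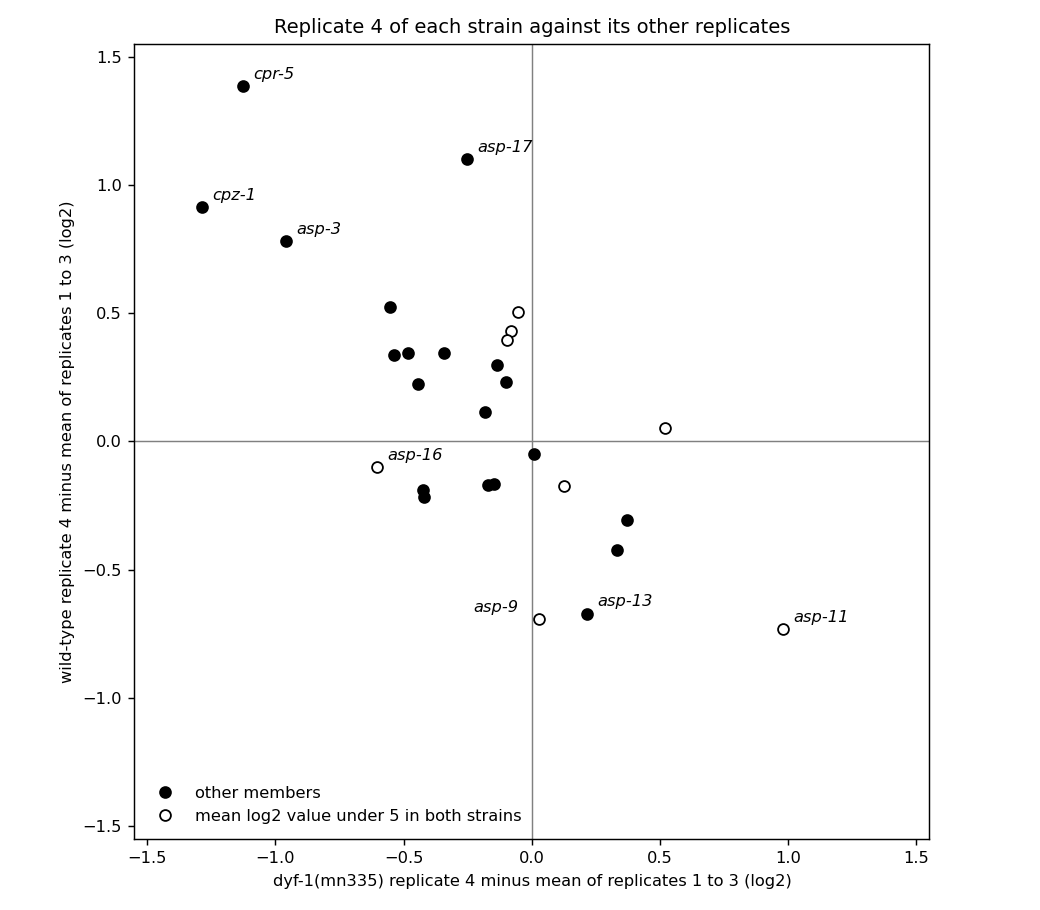
Replicate 4 minus the mean of replicates 1 to 3 (log2) in *dyf-1(mn335)* (horizontal axis) and in wild-type (vertical axis), 1 point per gene, open where the gene is dim in both strains. *cpr-5*, *cpz-1* and *asp-3* lie at the upper left, low in mutant replicate 4 and high in wild-type replicate 4, and *asp-11* and *asp-13* lie at the lower right.

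Acidification, partner hydrolases, inhibitors and regulators of the same pathway were read from 7 lists of 117 genes with a probe set. In these lists 1 gene was called higher and 6 lower, beside 6.56% and 3.46% of all probe sets. The counts were 11 and 21 without wild-type replicate 4, beside 13.3% and 12.9% of all probe sets. The counts of single lists at an unadjusted limma p under 0.05 stand beside 39.0% of all probe sets in either direction.

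The subunits of the vacuolar proton pump, which acidifies lysosomes, held no call. Of 21 subunit genes 19 had a probe set of their own, with a median log2 fold change of -0.15, and at an unadjusted limma p under 0.05 there were 1 higher and 4 lower. The 26 autophagy genes had a median of 0.06 and no call, with 4 higher and 5 lower at an unadjusted limma p under 0.05.

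Among 27 lysosomal membrane proteins and hydrolases, 1 gene was called higher and 2 lower, and the median was -0.01. *asm-3*, an acid sphingomyelinase gene, read 8.64, 8.63, 9.07 and 8.46 in the mutant, against 4.87, 5.28, 4.70 and 5.43 in wild-type. The strains were far apart on every array, with a log2 fold change of 3.63 (SE 0.20, limma adjusted p = 4.6e-05). *ppt-1*, which encodes palmitoyl-protein thioesterase, fell by 1.26 on the log2 scale (limma adjusted p = 0.0076), and *cln-3.1*, a homologue of human CLN3, fell by 1.27 (limma adjusted p = 0.0018). Wild-type replicate 4 was the lowest wild-type array for both, at 8.05 for *ppt-1* and 6.98 for *cln-3.1*, and both passed without it.

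The list of cystatins, which block papain-like cathepsins, and serpins, which block serine and some cysteine proteases, held 8 genes. Of these 2 were called lower and none higher, beside 3.46% lower and 6.56% higher of all probe sets. All 8 fold changes were below 0 over all arrays, against 53.4% of all probe sets, and their median was -0.59. With wild-type replicate 4 left out, 7 of the 8 were below 0 and 4 were called lower, beside 12.9% of all probe sets called lower. *srp-2* had 5.80, 5.76, 6.14 and 5.98 in the mutant and between 6.65 and 7.50 in wild-type, a difference of -1.09 log2 units (SE 0.20, limma adjusted p = 0.0049). *srp-3* was at -0.78 (SE 0.14, limma adjusted p = 0.0051).

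The 2 cystatin genes are named here after their values were seen. *cpi-1* read 9.09, 9.06, 9.13 and 10.00 in the mutant and 11.40, 11.06, 11.40 and 9.57 in wild-type. Replicates 1 to 3 of the strains were widely separated and the replicate 4 arrays crossed over. The log2 fold change was -1.54 (SE 0.41) and missed the threshold over all arrays (limma adjusted p = 0.025), and without wild-type replicate 4 it was -1.96 and passed (limma adjusted p = 0.0004). *cpi-2* was at -0.11 (SE 0.12, limma adjusted p = 0.527), with values of 10.07 to 10.32 in the mutant and 10.15 to 10.38 in wild-type.

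The calpains, calcium-dependent cysteine proteases of the cytosol of another family, held no call among 10 genes. Their median was -0.30, and 1 was higher and 4 were lower at an unadjusted limma p under 0.05. *clp-1* and *tra-3*, which act upstream of *asp-3* and *asp-4* in necrotic death, and *clp-8* are likewise named after their values were seen. *clp-1* was at 0.13 (limma adjusted p = 0.496). *tra-3* was at 0.51 (limma adjusted p = 0.0749) over all arrays and at 0.68 without wild-type replicate 4, where it passed (limma adjusted p = 0.0029). In the same setting *clp-8*, a dim calpain gene, passed as lower (-0.76, limma adjusted p = 0.0071), and 26.2% of all probe sets were called.

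Of 19 prolyl carboxypeptidase-like and trypsin-like genes, other digestive peptidases, 2 were called lower and none higher, with a median of -0.40 and 7 lower at an unadjusted limma p under 0.05. The called genes *try-6* (-0.74, limma adjusted p = 0.0038) and *try-7* (-1.15, limma adjusted p = 0.0014) were dim in both strains.

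None of the 8 regulators of gut and lysosomal genes was called, their median was 0.12, and 2 were higher and 2 lower at an unadjusted limma p under 0.05. *hlh-30*, the worm relative of TFEB and an activator of lysosomal and autophagy genes, is named after its values were seen, as is *elt-4*. *hlh-30* read 9.78, 9.09, 9.28 and 8.35 in the mutant and 7.15, 7.36, 6.94 and 9.23 in wild-type. Wild-type replicate 4 lay among the mutant arrays, and the log2 fold change was 1.45 over all arrays (limma adjusted p = 0.0594) and 1.97 without it, where *hlh-30* passed (limma adjusted p = 0.0011). *elt-4*, a GATA factor gene, passed in the opposite direction in that setting (-0.99, limma adjusted p = 0.0061). Its wild-type replicate 4, at 4.56, also lay among the mutant arrays. Of all probe sets, 26.2% were called in that setting. Over all arrays *elt-2*, the main GATA factor of the intestine, was at 0.45 (limma adjusted p = 0.214).

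**Figure D5:**
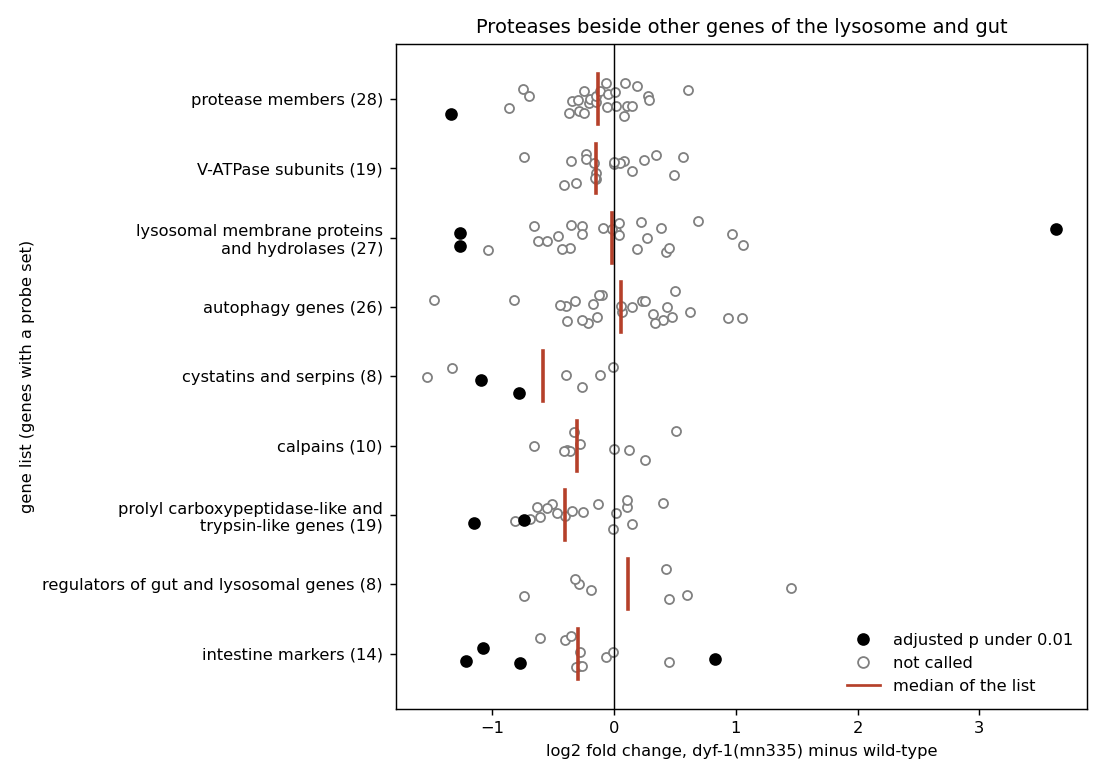
Log2 fold change, *dyf-1(mn335)* minus wild-type (horizontal axis), of the 28 proteases, of the genes in the 7 lists of the lysosome and gut, and of the intestine markers (rows, with the number of genes that have a probe set). Filled points passed limma's adjusted p under 0.01 and the red bar is the median, which lies at -0.13 for the proteases and at -0.59 for the cystatins and serpins. *asm-3* is the filled point at 3.63.

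Markers of several tissues were read on the same arrays. Of 14 intestine markers 1 was called higher (*ifb-2*, an intermediate filament gene) and 3 lower (*ges-1*, a gut esterase gene, *act-5*, a microvillar actin gene, and *vit-1*, a yolk protein gene), and their median log2 fold change was -0.30. Their summed level on the linear scale ran from 22924 to 26454 in the mutant and from 24326 to 34540 in wild-type, and without wild-type replicate 4 their median was -0.42. Of 6 neuron markers 4 were called higher, and of 8 pharyngeal muscle and gland markers 1, with medians of 0.76 and 0.81. Of the pharynx markers 6 were above 0 and 2 below, *phat-3* at -1.45 and *hlh-6* at -0.38. Calls over all probe sets were 6.56% higher and 3.46% lower. The neuron sum was 6347 to 6805 in the mutant against 4561 to 5229 in wild-type, and the pharynx sum 4510 to 6083 against 2163 to 3902. Coelomocyte, oocyte and eggshell, sperm and hypodermis markers gave 0, 0, 0 and 1 higher calls and 0, 0, 1 and 1 lower calls. The part of tissue make-up in the protease values, *cpr-8* included, was not tested.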

How the data were processed

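RNA of 4 *dyf-1(mn335)* and 4 wild-type samples was measured on Affymetrix *C. elegans* Gene Array 1.0. The authors made the deposited log2 values by RMA (package oligo), which adjusts background, normalises by quantiles and summarises probes by median polish. The deposited array medians were 5.30 to 5.36 in the mutant and 5.14 to 5.21 in wild-type. The table holds 29317 probe sets, and probe-level data were not used.

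Strains were taken from the labels and compared in limma 3.58.1 (lmFit, then eBayes, under R 4.3.3), two-sided, without covariates, Benjamini-Hochberg over all probe sets, called at an adjusted p under 0.01. Single genes were also compared by exact permutation tests. Genes were named from the platform annotation; all 28 members matched a RefSeq gene table (WBcel235) by Entrez ID, which was used for names and gene order only. Members, the 14 gene lists and tests were chosen with earlier results of these data known. Described in full were called members, members whose strains do not overlap, and *asp-3*, *asp-4*, *cpl-1* and *cpz-1*; from lists, called genes, at most 3 per direction. The fit was tested on simulated data with independent noise in each array, so that test does not cover the shifts of the replicate 4 arrays. Alternatives were a signal filter, eBayes with trend, array weights, median centring, cyclic loess, a replicate block and leaving out arrays. The number of arrays limits the precision, and no sequences were used here.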

Additional observations from a re-analysis of the deposited data

Results flagged for a closer look

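In groups of 4 arrays, the lowest or highest array was compared with its nearest neighbour relative to the range of its group (Dixon's criterion at its 95% critical value). Of 56 groups, 28 genes in 2 strains, 6 passed, where chance gives about 1 in 20. In *dyf-1(mn335)*, replicate 4 stood apart for *asp-3*, at 9.78 against 10.66 for the nearest array, for *asp-5*, at 10.68 against 11.09, and for the dim *asp-7*, at 3.18 against 2.69. In wild-type, replicate 2 was the high array for *cpr-8*, at 8.39 against 7.87, and for *cpr-3*, at 8.47 against 7.94, and replicate 1 was the low array for *asp-7*, at 2.54 against 2.67. For *cpr-8* this array lies on the far side from the mutant values.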

How the results depend on the processing

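*cpr-8* was lower in *dyf-1(mn335)* in all alternatives run, with log2 fold changes from -1.50 to -1.21 and limma adjusted p from 1.1e-04 to 0.0057 in 13 of them, and it missed the threshold with a replicate block (limma adjusted p = 0.0128). With an adjusted p under 0.05 the members gave 1 higher and 4 lower. Array weights, which gave the replicate arrays unequal influence, called 1 higher and 5 lower (21.4% of members, against 37.1% of all probe sets), and turned the sign of *cpz-1* (0.12), *asp-5* (0.12), *cpr-5* (0.16) and *asp-18* (0.0025). Median centring called 3 lower (*cpr-8*, *asp-12*, *asp-8*), 10.7% of members against 10.8% of all probe sets. It moved the members' median to -0.28 and that of all probe sets to -0.19. Since centring moves every fold change by the same -0.16, it turned those just above 0, *asp-7* (-0.0126), *asp-6* (-0.15), *cpr-2* (-0.14), *asp-15* (-0.0761), *cpr-6* (-0.0645) and *asp-3* (-0.0507), and the share of higher calls over all probe sets was 47.8%, against 65.5% as deposited. Cyclic loess called 2 lower (*cpr-8*, *asp-8*), 7.1% of members against 9.8% of all probe sets, and turned *asp-18* (0.0141). Leaving out both replicate 4 arrays, an alternative chosen after seeing the data, gave 1 higher and 2 lower, a median of -0.0012, and positive changes for *cpz-1* (0.35), *asp-5* (0.11), *cpr-5* (0.33) and *asp-18* (0.0804). Leaving out 1 array at a time gave 0 to 1 higher and 1 to 2 lower, 3.6% to 10.7% of members against 4.28% to 26.2% of all probe sets. The added calls came without wild-type replicate 1 (*asp-8*) and without wild-type replicate 4 (*asp-13*, *asp-14*), where the 7 lists gave 11 higher and 21 lower. In these fits the log2 fold change ran from -0.0604 to 0.0896 for *asp-6*, -0.0712 to 0.12 for *cpr-2*, -0.14 to 0.0601 for *asp-18*, -0.43 to 0.12 for *cpz-1*, -0.15 to 0.0532 for *asp-5*, -0.24 to 0.0765 for *asp-9*, -0.0375 to 0.21 for *asp-15*, -0.0513 to 0.34 for *asp-3* and -0.49 to 0.0506 for *cpr-5*. The cause of the changes other than those under centring was not tested. The deviations of same-numbered arrays from their strain means correlated at -0.31, 0.01, -0.20 and -0.57. The deviations of differently numbered arrays were not compared. In the values themselves, mutant replicates 1 to 3 correlated at 0.941, 0.952 and 0.941 with the wild-type array of their own number. Each correlated better, at 0.976 to 0.978, with wild-type replicate 4. Mutant replicate 4 was also closest to wild-type replicate 4 (0.967). Wild-type replicate 4 was thus the closest for every mutant array, and same-numbered arrays did not stand out as pairs. The replicate block left 0 members and 315 probe sets called in all, against 2939 without it. Each member has 1 probe set, so averaging several per gene changed nothing and was not run. Signal limits the 8 dim members.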
